A study of Mus musculus with 6 samples.

Results

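Messenger RNA of 9 genes of the heme pathway was followed in mouse BCR-ABL+ B-ALL cells (B-lineage acute lymphoblastic leukaemia), on 3 arrays after dihydroartemisinin (DHA) and 3 arrays after vehicle. They were 7 enzymes of heme synthesis (Alas1, Alad, Uros, Urod, Cpox, Ppox and Fech) and the heme oxygenases Hmox1 and Hmox2. A gene was taken when the platform annotation paired a probe set with its symbol alone, and the brightest such probe set was to stand for it. Each of the 9 had exactly 1 probe set, so no second probe set could be set beside it, among 22180 named genes and 41345 probe sets in all. All 9 passed the filter on dim genes, a 6-array mean at or above the 30th percentile (4.52 on the log2 scale), which left 15526 genes for testing.

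Treated cells received 312 nM DHA, the active form of the artemisinin antimalarials, for 4 h, and control cells received dimethyl sulphoxide (DMSO). The RNA was converted to biotinylated cRNA and read on Affymetrix arrays, and the deposited values are log2 intensities. All cells carried BCR-ABL, a fusion kinase. The growth protocol names p185+ cells, with or without the T315I mutation, and cells lacking Arf or p53. The genotype used for the arrays was not given in the sources read here. The labels do not state whether each sample was its own culture. If they were not, the p-values reflect technical spread only. The number of arrays limits the precision of every value.

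Heme is made in steps that begin and end in the mitochondrion. ALAS joins glycine and succinyl-CoA, the middle enzymes assemble and trim the porphyrin ring in the cytosol, and ferrochelatase inserts ferrous iron. Heme oxygenases open the ring again and release iron, carbon monoxide and biliverdin; HMOX2 is made constitutively in most cells, whereas Hmox1 is induced by many stresses and by heme itself. Artemisinins carry an endoperoxide bridge that reacts with ferrous iron and heme.

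The cells had the RNA of their labelled lineage. Of 11 B-cell precursor markers, 9 were named on the array and all 9 lay above the filter, with the list's mean level between 10.43 and 10.51 on the vehicle arrays and between 10.42 and 10.48 on the DHA arrays. The B-cell receptor component Cd79a measured 12.70 with vehicle, and the surrogate light chain gene Vpreb1, at 4.78, lay near the filter. Array-to-array Pearson correlations over all probe sets ran from 0.9925 to 0.9947, as a description. Vehicle replicate 3 and DHA replicate 2 share a number in their titles whose meaning is not given.

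Of the 9 genes, Hmox1 alone had separate groups, and the other 8 differed by less than 0.2 on the log2 scale in either direction. Hmox1 was 1.88 times as high with DHA as with vehicle. The synthesis enzymes were split, with 4 higher and 3 lower. None of the 9 passed the test, limma's moderated test with Benjamini-Hochberg adjustment over all genes at 0.05, by which 0.0902% of the 15526 genes were called. At an unadjusted limma p under 0.05 the count was 1 of 9, Hmox1, against 12.0% of all genes tested. Groups did not overlap in 1 of 9, against 15.8% of all genes tested. The median log2 fold change was 0.061 over the 9 genes and 0.0027 over all genes tested. In such bulk RNA, a change in the share of expressing cells and a change in RNA per cell cannot be told apart.

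**Figure D1:**
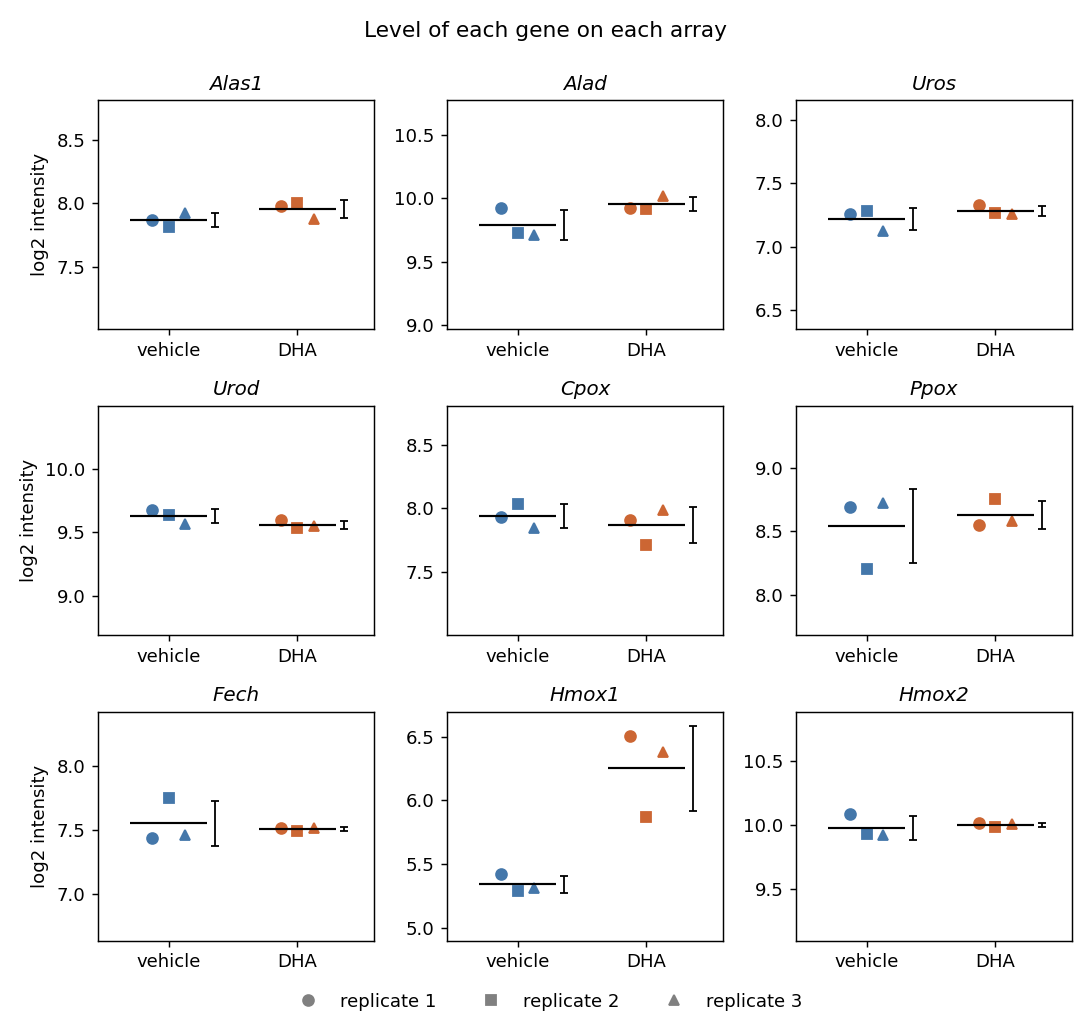
Log2 intensity (vertical axis, the same span in each panel) of the 9 heme genes on the 3 vehicle and 3 DHA arrays. Points are arrays, horizontal lines are group means and bars at the side are SDs. Hmox1 is the panel whose groups stand apart, with the DHA arrays at 6.50, 5.87 and 6.38 and the vehicle arrays between 5.29 and 5.42.

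The first enzyme of the pathway, Alas1, is the rate-limiting step outside the red cell lineage, and its transcription and stability are lowered by heme. It measured 7.87, 7.81 and 7.92 on vehicle arrays 1 to 3 and 7.98, 8.004 and 7.87 on DHA arrays 1 to 3. DHA arrays 1 and 2 were above every vehicle array, while DHA array 3 lay inside the vehicle range. With a 95% interval of -0.048 to 0.22, its log2 fold change of 0.087 (SE 0.057) did not pass (limma adjusted p = 0.589). On the linear scale that interval runs from 0.967 to 1.17 times the vehicle level.

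Alad, which joins molecules of aminolevulinic acid into porphobilinogen and is known as the target of lead poisoning, had the largest difference of the synthesis enzymes over all 6 arrays. Vehicle arrays gave 9.92, 9.73 and 9.71, and DHA arrays 9.92, 9.92 and 10.02. Vehicle array 1 alone kept the groups from separating, since it was as high as DHA array 1. Alad differed by 0.17 on the log2 scale (SE 0.070, interval -0.0024 to 0.33), at a limma adjusted p = 0.419 and an unadjusted p = 0.0526. Without vehicle replicate 3 it was 0.13, below the 0.18 of Ppox there. Without vehicle replicate 1 it was 0.23, and its lowest adjusted p under the alternatives run was 0.309.

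Promoter sequence is shown for these 2 genes, the rate-limiting enzyme and the synthesis enzyme with the largest difference over all 6 arrays. Each is the 250 bases before the upstream start listed by RefSeq (GRCm38.p6), minus strand, read 5′ to 3′. Alas1 is chr9:106247955-106248204 and Alad chr4:62520064-62520313. Capitals mark matches on either strand to the 6 motifs searched, of which the E-box CACGTG and the GC box GGGCGG, which can also appear as its reverse complement, had matches in these stretches.
Alas1: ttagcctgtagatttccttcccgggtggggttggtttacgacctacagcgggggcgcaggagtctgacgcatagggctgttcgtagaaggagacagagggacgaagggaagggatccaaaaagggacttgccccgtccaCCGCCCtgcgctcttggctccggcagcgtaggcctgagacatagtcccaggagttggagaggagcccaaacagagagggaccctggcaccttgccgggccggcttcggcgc
Alad: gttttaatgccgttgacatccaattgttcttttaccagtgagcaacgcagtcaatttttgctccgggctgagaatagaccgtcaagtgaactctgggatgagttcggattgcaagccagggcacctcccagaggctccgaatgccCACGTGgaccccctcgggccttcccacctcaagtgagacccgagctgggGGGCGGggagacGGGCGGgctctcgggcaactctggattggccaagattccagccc

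The Alad stretch holds 1 E-box, whose first base lies 105 bases before the start, and 2 GC boxes at 56 and 44 bases. The Alas1 stretch holds 1 GC box, 111 bases before the start. RefSeq promoters were matched for 7 of the 9 genes, in 12 windows of 300 bases (250 before to 50 after a start), some of which overlap; Hmox1 and Fech were the others. An E-box was in 4 of the 12 windows and in 7.15% of all 32851 windows in the table, and a GC box in 8 of 12 and 35.7%. The antioxidant response element core TGACNNNGC (12.4% of all windows), the AP-1 motif TGANTCA (7.81%), the C/EBP-ATF response element TGATGNAA (3.97%) and the CRE motif TGACGTCA (1.79%) had no match in the 12. Both strands were searched and a match is only a run of letters. The matches in the printed stretches do not overlap each other.

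Uros and Urod also act in the cytosol: uroporphyrinogen III synthase closes the ring and uroporphyrinogen decarboxylase trims its side chains. Uros measured 7.26, 7.28 and 7.12 with vehicle and 7.33, 7.26 and 7.26 with DHA. Only DHA array 1 was above every vehicle array, and the log2 fold change was 0.061 (SE 0.059; limma adjusted p = 0.717). It was 0.011 without vehicle replicate 3. Urod measured 9.68, 9.64 and 9.57 with vehicle and 9.59, 9.53 and 9.54 with DHA. DHA arrays 2 and 3 were below every vehicle array and DHA array 1 was not. The difference was -0.071 on the log2 scale, within a 95% interval of -0.19 to 0.047 (limma adjusted p = 0.613). Its SE of 0.050 was the smallest of the 7 synthesis enzymes.

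Cpox, Ppox and Fech encode the last 3 enzymes, which work in mitochondria: coproporphyrinogen oxidase, protoporphyrinogen oxidase and ferrochelatase. Cpox measured 7.93, 8.03 and 7.84 with vehicle and 7.91, 7.71 and 7.99 with DHA, and its groups overlapped, with only DHA array 2 outside the vehicle range. Its log2 fold change was -0.065 (SE 0.086; limma adjusted p = 0.800) and its sign turned without DHA replicate 2 (0.014).

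Ppox was the least precise of the 9 after Hmox1. Vehicle array 2 (8.21) stood well under vehicle arrays 1 and 3 (8.69 and 8.72), and the DHA arrays lay at 8.55, 8.76 and 8.58. Its log2 fold change of 0.089 (SE 0.14; interval -0.25 to 0.43), at a limma adjusted p = 0.842, became -0.078 without vehicle replicate 2.

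Fech was almost level on the DHA arrays, at 7.52, 7.49 and 7.52. With vehicle it measured 7.44, 7.76 and 7.46, so that array 2 was above all the others. Its log2 fold change was -0.043 (SE 0.089; limma adjusted p = 0.880), and without vehicle replicate 2 it was 0.059. Vehicle array 2 thus held the lowest value of Ppox and the highest of Fech.

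**Figure D2:**
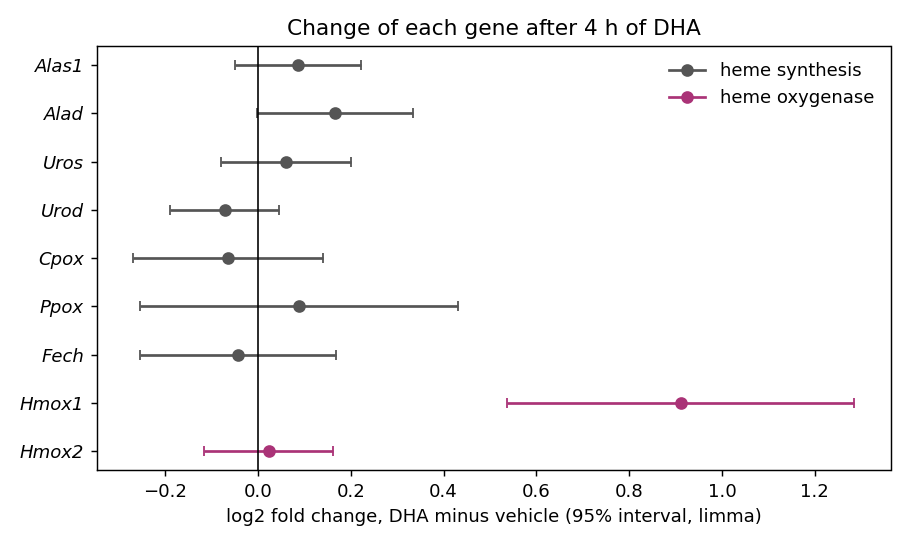
Log2 fold change (horizontal axis, DHA minus vehicle, n = 3 arrays per group) of the 9 heme genes with 95% intervals from limma, not adjusted for the number of genes. The intervals of the 7 synthesis enzymes and of Hmox2 span 0, and that of Hmox1 runs from 0.54 to 1.29.

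Alas2, the form of the first enzyme used by red cell precursors, shared its only probe set with Apex2, so the value belongs to neither gene alone. Its level was 4.69 ± 0.068 on the vehicle arrays and 4.63 ± 0.049 on the DHA arrays (SD, n = 3 per group). Erythroid markers were low: 7 of 14 were named, 4 of these lay above the filter, and the list's mean level was 4.79 to 4.84 with vehicle and 4.84 to 4.87 with DHA. Epb42, Rhag and Tfr2 lay under the filter.

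Hmox1 encodes the inducible heme oxygenase. It measured 5.42, 5.29 and 5.31 on the vehicle arrays (5.34 ± 0.068, SD, n = 3) and 6.50, 5.87 and 6.38 on the DHA arrays (6.25 ± 0.34, SD, n = 3). Every DHA array was above every vehicle array, and DHA array 2 was about midway between the vehicle arrays and the other 2 DHA arrays. Hmox1 differed by 0.91 on the log2 scale (SE 0.16, 95% interval 0.54 to 1.29), a 1.88-fold higher level with an interval of 1.45 to 2.44. The limma adjusted p was 0.113 (unadjusted p = 0.000749), so the gene was not called. An exact permutation of the group labels, two-sided with n = 3 per group, gave p = 0.1, the smallest it allows.

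By size, 18 of the 15526 genes tested, Hmox1 among them, differed by as much or more in either direction (0.116%). By unadjusted p it stood at rank 103, since its SE was larger than that of 97.5% of the genes. The spread came from the treated arrays, whose SD was 0.34 against 0.068 on the vehicle arrays. Without DHA replicate 2 the log2 fold change was 1.10 and the gene was called (limma adjusted p = 0.0280). No other alternative called it, and its adjusted p over all of them ran from 0.0280 to 0.419.

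**Figure D3:**
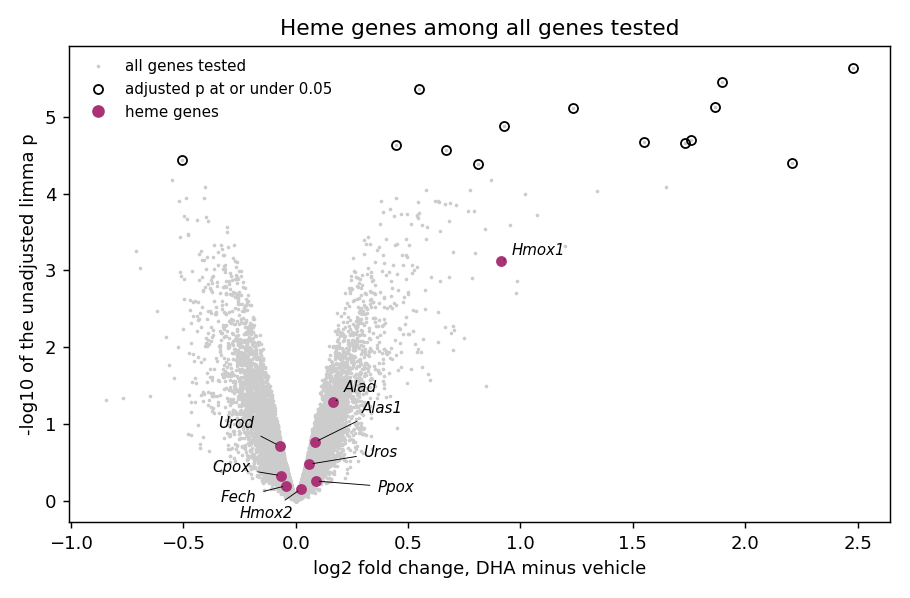
Log2 fold change (horizontal axis, DHA minus vehicle) against -log10 of the unadjusted limma p (vertical axis) for 15526 genes, with the 14 called genes ringed and the 9 heme genes filled. Hmox1 lies at 0.91, under the ringed genes, and the other 8 lie within 0.2 of zero.

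Hmox2, the constitutive heme oxygenase, measured 10.09, 9.93 and 9.92 with vehicle and 10.01, 9.99 and 10.01 with DHA. The DHA values all fell inside the vehicle range. Their mean differed from vehicle by 0.023 on the log2 scale (SE 0.058, interval -0.12 to 0.16; limma adjusted p = 0.904), and the sign turned without vehicle replicate 2 or 3. Within each array the Hmox1 value minus the Hmox2 value was -4.67, -4.64 and -4.60 with vehicle and -3.51, -4.11 and -3.62 with DHA. This difference shifted by 0.89 between the groups, with every DHA array above every vehicle array (n = 3 per group; exact two-sided permutation p = 0.1, the smallest possible). The shift concerns unequal change of the 2 genes, and the 2 probe sets' levels are not comparable with each other.

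Myeloid cells, macrophages above all, are a rich source of Hmox1 RNA. Of 15 macrophage and myeloid markers, 7 lay above the filter, 4 of them higher and 3 lower with DHA in the mean. Limma called none, and 0 of 7 had an unadjusted p under 0.05, against 12.0% of all genes tested. The list's mean level was 4.59 to 4.67 with vehicle and 4.62 to 4.65 with DHA, and Cd14, Cd163 and Adgre1 were among the 8 under the filter. Cd68 and Fcgr3, brighter than the other tested markers, were lower with DHA in the mean. Cd68 measured 7.44 with vehicle and 7.34 with DHA (limma adjusted p = 0.833), and Fcgr3 5.90 and 5.70 (limma adjusted p = 0.432). The 4 markers that were higher with DHA in the mean were dimmer. The part of myeloid cells in the Hmox1 difference was not tested. For T and NK cells 4 of 9 named markers lay above the filter. The mean level of all 9 was 4.61 to 4.63 with vehicle and 4.58 to 4.70 with DHA. Of the 4 above the filter, 0 were called. At an unadjusted limma p under 0.05, 1 of the 4 was higher with DHA, where 5.94% of all genes tested were.

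The regulators of Hmox1 include the activator NRF2 (Nfe2l2) with its inhibitor KEAP1 and its small MAF partners, the heme-sensing repressor BACH1, and stress factors such as ATF4. Of 13 listed, 12 were tested, 3 were higher and 9 lower, and limma called 0. At an unadjusted p under 0.05 there were 1 higher and 3 lower, where 5.94% and 6.08% of all genes tested were. The list's median log2 fold change was -0.034.

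Atf4, the transcription factor of the integrated stress response, measured 9.12, 9.09 and 8.97 with vehicle and 9.64, 9.46 and 9.56 with DHA. Its groups were separate, and DHA array 2 was the lowest of the treated arrays, as it was for Hmox1. Its log2 fold change was 0.50 (SE 0.067; limma adjusted p = 0.0660), which missed the threshold. Atf4 passed with the 50th percentile filter, after quantile normalization, with trend and robust moderation and with a term for the shared title number. In these settings limma adjusted p lay between 0.0343 and 0.0388. Atf4 did not pass in any fit that left out 1 array (limma adjusted p 0.0957 to 0.305). Nor did it pass with no filter (0.102), no moderation (0.351) or without both samples that share the title number (0.313).

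Keap1 went from 7.46 ± 0.090 to 7.27 ± 0.062 and the small MAF gene Mafk from 7.97 ± 0.089 to 7.78 ± 0.063 (SD, n = 3 per group). Both had a log2 fold change of -0.19 and separate groups, and neither passed (limma adjusted p = 0.321 for both). Nfe2l2 had -0.11 (limma adjusted p = 0.567) and Bach1 -0.016 (limma adjusted p = 0.966). The Bach1 groups overlapped widely. The AP-1 gene Jun had -0.22 (SE 0.073), with separate groups and an unadjusted p of 0.0206 (limma adjusted p = 0.321). Nfe2l2, Bach1 and Jun are given for their roles, a choice made with their values known.

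Of 14 other listed genes controlled by BACH1 and NRF2, 8 were tested. All 8 were lower with DHA in the fit over all arrays, where 48.8% of all genes tested were lower. Limma called 0, and 1 was lower at an unadjusted p under 0.05, where 6.08% of all genes tested were. The 8 genes share the same 6 arrays and are not independent. Without vehicle replicate 3 or DHA replicate 3, 7 of the 8 were lower, and with no filter 10 of 11 were. The median log2 fold change was -0.078, and 3 named genes, Nqo1, Slc7a11 and Me1, were under the filter. Thioredoxin reductase Txnrd1 had the smallest p, at 9.75, 10.06 and 9.98 with vehicle and 9.38, 9.70 and 9.75 with DHA. Its groups overlapped through vehicle array 1, and the difference was -0.32 (SE 0.12; limma adjusted p = 0.372). The glutathione synthesis gene Gclm had -0.16 (limma adjusted p = 0.457) and the heme transporter Slc48a1 -0.093 (limma adjusted p = 0.519). Over the alternatives the median of this list lay between -0.12 and -0.058.

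**Figure D4:**
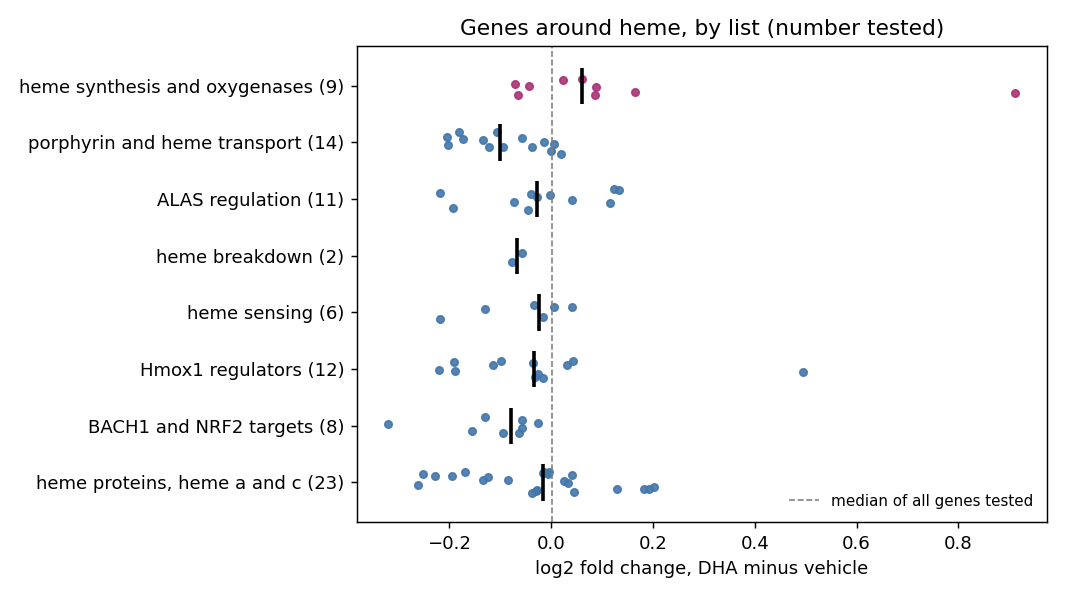
Log2 fold change (horizontal axis, DHA minus vehicle) of each tested gene in 8 lists around heme, with the number tested in brackets, list medians as black bars and the median of all genes tested as a dashed line. The porphyrin and heme transport list has a median of -0.10 and the BACH1 and NRF2 targets -0.078. Hmox1 (0.91) and Atf4 (0.50) lie far to the right of their lists.

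Transporters carry porphyrins and heme across mitochondrial and cell membranes. The list used here also holds carriers with other cargo and heme-binding proteins that are not transporters. Its counts are therefore not of porphyrin and heme transporters alone. Of 14 tested, 12 were lower with DHA and 2 higher, where 48.8% of all genes tested were lower, and limma called 0. At an unadjusted p under 0.05 there were 3 lower and 0 higher, where 6.08% and 5.94% of all genes tested were. The median log2 fold change was -0.10, and between 10 and 14 genes were lower over the alternatives, with medians from -0.11 to -0.046.

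The porphyrin transporter Abcb6 measured 7.42, 7.61 and 7.65 with vehicle and 7.31, 7.37 and 7.38 with DHA. All 3 DHA arrays were below all 3 vehicle arrays, and the difference was -0.20 on the log2 scale (SE 0.070; limma adjusted p = 0.331). Flvcr1, which exports heme from the cell, went from 8.99 ± 0.095 to 8.82 ± 0.058 (SD, n = 3 per group; limma adjusted p = 0.354). Slc25a39, a mitochondrial carrier needed for heme synthesis, had -0.20 (limma adjusted p = 0.412), and its groups were only just separate, with DHA array 2 at 9.38 and vehicle array 2 at 9.39.

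A further list held 15 genes that regulate ALAS, degrade it, supply iron and iron-sulphur clusters or act on succinate or succinyl-CoA. Of these, 11 were tested, 7 lower and 4 higher. Limma called 0, and 1 was lower at an unadjusted p under 0.05, where 6.08% of all genes tested were. Nr1d1, a nuclear receptor that binds heme and stands also in the heme-sensing list, had -0.22 (SE 0.066; limma adjusted p = 0.278) with separate groups. The protease subunits Clpp and Clpx, whose complex acts on ALAS, had 0.13 and 0.12 (limma adjusted p = 0.435 and 0.522). The median of this list was -0.027 and turned positive on leaving out some arrays, up to 0.041 without vehicle replicate 2.

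In the heme-sensing list 6 of 8 genes were tested, 4 lower and 2 higher, with a median of -0.024. Limma called 0, and Nr1d1 was the 1 gene at an unadjusted p under 0.05, against 12.0% of all genes tested. Gclc, a glutathione synthesis gene counted also among the BACH1 and NRF2 targets, encodes no heme sensor. Gclc had -0.13 and the B-cell repressor Bach2 0.042 (limma adjusted p = 0.613 and 0.850). The heme-regulated eIF2α kinase gene Eif2ak1, a candidate named for its role and not by the rule for named genes, had 0.0048 (SE 0.053; limma adjusted p = 0.981). Downstream of heme oxygenase, the biliverdin reductases Blvra and Blvrb had -0.076 and -0.058 (limma adjusted p = 0.614 and 0.888), and neither had an unadjusted p under 0.05.

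Among genes of heme proteins and of heme a and c maturation, 23 of 26 were tested, 15 lower and 8 higher, with a median of -0.016. Limma called 0, and at an unadjusted p under 0.05 there were 4 lower and 1 higher, where 6.08% and 5.94% of all genes tested were. Steap3, a heme-containing ferrireductase, went from 7.59 ± 0.12 to 7.33 ± 0.041 (SD, n = 3 per group; log2 fold change -0.25, limma adjusted p = 0.241). The fatty acid desaturase Fads1, with its cytochrome b5 domain, had 0.20 and Sdhd, which helps hold the heme of respiratory complex II, -0.23 (limma adjusted p = 0.322 and 0.330). Uqcrfs1 and Ncf1 in this list bind no heme and are partners of heme proteins. Uqcrfs1 is among the 4 lower genes at an unadjusted limma p under 0.05. Over the lists other than the 9 heme genes, 52 of 71 tested genes were lower with DHA (73.2%, against 48.8% of all genes tested), with a median of -0.036. The 9 heme genes, left out of this count, were 3 lower and 6 higher. All these genes share the same 6 arrays and are not independent.

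The 5 genes whose profiles lay nearest to that of Hmox1 were Gpt2, Jdp2, Bhlhe40, Cep162 and Arl14ep. Likeness was the root mean square difference over the 6 arrays after subtracting each gene's own mean, and was 0.042 for Gpt2, an alanine transaminase, and 0.082 for both Jdp2, an AP-1 repressor, and Bhlhe40, a repressor of the clock family. In each of the 5, as in Hmox1, DHA array 2 was the lowest of the treated arrays. The genes were chosen for nearness to Hmox1 on these same arrays, so this likeness largely follows from the choice. Gpt2 measured 8.41, 8.30 and 8.37 with vehicle and 9.51, 8.98 and 9.45 with DHA. Its log2 fold change was 0.95 (SE 0.14; limma adjusted p = 0.0703). Of the 5, Arl14ep was called (0.93, limma adjusted p = 0.0340). The call was lost in 5 of the 6 fits that left out 1 array (all but the one without DHA replicate 2), where limma adjusted p ran up to 0.290, and with no filter (0.0594), no moderation (0.336) or without both samples that share a title number (0.243). In the fit over all arrays, the difference in call from Hmox1 came with an SE of 0.083 against 0.16.

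**Figure D5:**
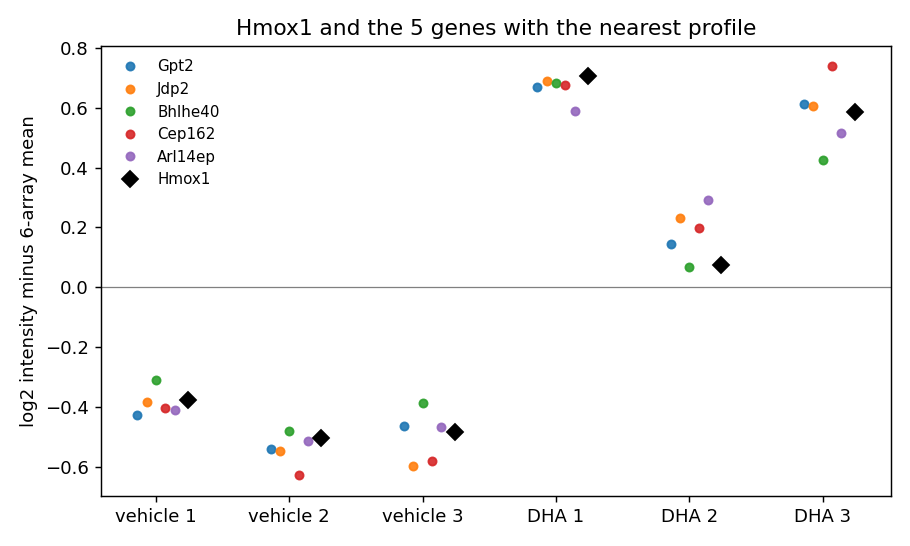
Log2 intensity minus the gene's own 6-array mean (vertical axis) on each array (horizontal axis) for Hmox1 (diamonds) and the 5 genes nearest to it. All 6 genes are below 0 on the vehicle arrays and lowest of the treated arrays on DHA array 2, where Hmox1 lies at 0.075. This likeness largely follows from choosing the 5 by their nearness to Hmox1 on these arrays.

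Around Alas1, whose range over the 6 arrays was only 0.20, the nearest profiles were Mir1956 (0.013), Neil3 (0.015), Pqbp1 (0.016), Bik (0.016) and Arhgef15 (0.021). None of these 5 was called (limma adjusted p between 0.499 and 0.718).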

How the data were processed

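Each deposited value is a log2 intensity of 1 probe set on 1 array, made by the authors with RMA and Partek version 6.6, per the submitters' processing notes. Their settings and order were not stated in the sources read here. RMA values tend to understate fold changes of dim probe sets. Groups came from the labelled agent. Gene names came from the platform annotation (23521 probe sets with 1 symbol, 1814 with several, 16010 unnamed). By Entrez identifier, 23328 of those with 1 symbol matched RefSeq (GRCm38.p6) and took its symbol. The brightest probe set stood for a gene, 6654 genes under the filter were left out, and limma version 3.58.1 in R version 4.3.3 compared all 6 arrays (4 residual and 2.77 prior degrees of freedom, two-sided). The procedure was tested on simulated data.

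The members and lists were chosen with earlier results of these data known. Genes named were all members, Alas2, up to 3 genes of smallest p per list, called genes and the 5 nearest to Hmox1 and to Alas1. Nfe2l2, Bach1, Jun, Eif2ak1, Cd79a, Vpreb1, Cd68, Fcgr3, Uqcrfs1, Ncf1 and the listed genes named as under the filter stand outside this rule, a choice made with their values known. A planned comparison of the heme oxygenase proteins was not made. Alternatives were leaving out each array, 2 filters, 2 scalings, 3 treatments of probe sets, 2 variance settings, array weights, a title-number term, leaving out both samples with that number, and a threshold of 0.1.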

Additional observations from a re-analysis of the deposited data

How the results depend on the processing

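No paired analysis was possible because the groups have a single title number in common, and the replicate numbers only follow accession order. The count of heme genes called was 0 in 17 of 18 refits and at an adjusted p of 0.1; leaving out 1 array it was 0 to 1, the 1 being Hmox1 without DHA replicate 2. The Hmox1 log2 fold change kept its sign and ran from 0.79 to 1.10 on leaving out 1 array. Ranges that included a change of sign on leaving out 1 array were -0.078 to 0.18 for Ppox, -0.099 to 0.059 for Fech, -0.12 to 0.014 for Cpox and -0.0075 to 0.077 for Hmox2 (-0.00039 without vehicle replicate 2). Alas1, Alad, Uros and Urod kept their sign in all 18. The filters, probe set treatments, variance settings and title-number term left these fold changes the same, so only the other settings could have turned a sign. The median of the 9 genes lay between 0.011 and 0.081. The number of all genes called, 14, was 0 to 24 on leaving out 1 array, 62 under the 50th percentile filter and 5 unfiltered, 63 with quantile-normalized and 52 with median-centred arrays, 2 when probe sets were tested singly, 1 without moderation, 62 if moderation was robust with a trend, 41 with the title-number term and 0 without both samples that share the number (1565 genes at an unadjusted limma p under 0.05). Some of these settings hold fewer arrays or genes; for the rest, the cause was not tested. Signal over background was not analysed here.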
